A study of Danio rerio with 6 samples.

Results

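The replication-dependent histone genes code for the core histones H2A, H2B, H3 and H4, and they were followed here across single cells of the zebrafish eye. Members were all genes whose symbol in the files starts with hist1h or hist2h, which gave 44 of 25109 genes. By their symbols, 24 were H4 genes (all copies of hist1h4l), 17 were H2A genes, 1 was an H2B gene (hist1h2ba), 1 was an H3 gene (hist2h3c) and 1 was an H2 gene whose symbol names neither A nor B (hist2h2l). No linker histone H1 gene carries such a symbol.

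The study sorted eye cells of F1 embryos at 48 hpf by flow cytometry and read the RNA of single cells with a droplet assay. All embryos carried the NRE-eGFP/HS5-mCherry cassette, in which the human PAX6 enhancer HS5 drives mCherry and the human PAX6 enhancer NRE drives eGFP from a single PhiC31 landing pad, and all were kept in PTU to block pigment. Eyes of many embryos were pooled for each sort. The groups were mCherry-enriched cells and eGFP-enriched cells, where eGFP-enriched cells were positive for eGFP alone, with 3 libraries each. By the study's account, its first round of sorting collected cells positive for both reporters, and its later rounds collected all mCherry-positive cells, so the mCherry-enriched libraries were not all sorted alike.

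Cells make core histones in S phase, when newly copied DNA has to be packed into nucleosomes. Their messenger RNAs are unusual in that most end in a stem-loop bound by slbp in place of a poly(A) tail. The assay primes on poly(A), so a count reports the histone messages that the assay could capture. pcna codes for the sliding clamp of DNA polymerases and is used as a mark of S phase, whereas mki67 codes for the Ki-67 protein of cycling cells and is used as a mark from S phase to mitosis. In the eye at this age, stem cells of the ciliary marginal zone and retinal progenitors divide, and most neurons have left the cycle.

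Barcodes with at least 1000 genes and at most 10% mitochondrial UMIs (unique molecules) were kept, 376, 218 and 597 in mCherry-enriched replicates 1, 2 and 3 and 2027, 85 and 2303 in eGFP-enriched replicates 1, 2 and 3. That is 5606 of 7686482 barcodes, with median UMIs per library between 5017 and 12222. A cell was gated to a class when at least 3 of the class's 8 markers had a UMI and no other of 16 classes had as many, and such classes are written X-like. The gate placed 4254 cells in 8 retinal classes and 345 in other tissues, and left 868 ties and 139 cells below the minimum. Since the gate chose cells by these markers, their levels in the classes do not check the class names independently. The summed stem cell markers, for example, stood at 3459 CPM (counts scaled to a common total of UMIs) in stem cell-like cells, against at most 484 CPM in the means of the other retinal classes. Ties were most frequent in both replicate 1 libraries, no doublet caller was run, and 787 kept cells had over 20000 UMIs. Libraries shared 4 barcodes between pairs. Nothing in the labels beyond the replicate number says that libraries came from separate pools. The p-values thus measure the spread between these libraries, which may be technical. By the study's account, each of 3 sorting rounds gave 1 eGFP-positive sample and 1 sample of mCherry-positive or double-positive cells. Libraries of the same round may thus share a pool of embryos, and tests within libraries counted each library apart.

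All 44 genes had UMIs in the kept cells, 1190734 in total. They took 1.58, 0.803 and 1.77% of the UMIs in mCherry-enriched replicates 1, 2 and 3, against 1.55, 0.787 and 1.44% in eGFP-enriched replicates 1, 2 and 3. Both replicate 2 libraries were lowest and the sorts overlapped. Barcodes of 1 to 100 UMIs, which hold mostly free RNA, carried histone shares of 0.331, 0.275 and 0.411% in the mCherry-enriched libraries and 0.480, 0.120 and 0.620% in the eGFP-enriched libraries. In each library the cells stood above the free RNA. Per library and retinal class, the exact binomial 95% interval of a share was between 0.0136 and 0.276 percentage points wide, and these intervals cover counting error only.

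A few H4 copies carried most of the signal. hist1h4l_12 (ENSDARG00000115281) alone held 36.1 ± 2.15% of the histone UMIs (SD, n = 6 libraries), and together with hist1h4l_7 and hist1h4l_17 it held 65.2 ± 2.44%. The 8 genes with the highest levels, which also include hist1h2a6, hist1h4l_11, hist1h4l_15, hist2h3c and hist1h2a4, held 77.9 ± 1.88%. By histone, H4 took 81.9 ± 0.870% of the histone UMIs and H2A 14.9 ± 1.31%.

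hist1h4l_12 was counted at 5584, 2940.5 and 6070.5 CPM in mCherry-enriched replicates 1, 2 and 3, against 5415, 3166 and 5069.8 CPM in eGFP-enriched replicates 1, 2 and 3. hist2h3c, the only H3 gene, stood at 280.1, 126 and 299.5 CPM in the mCherry-enriched libraries, against 274, 157 and 224 CPM in the eGFP-enriched libraries. hist1h2ba, the only H2B gene, stood at 75.8, 46.6 and 107 CPM in the mCherry-enriched libraries, against 74.3, 40.1 and 70.1 CPM in the eGFP-enriched libraries. In all 3 genes the replicate 2 libraries were lowest and the sorts overlapped. These are 3′ counts that were not divided by gene length. The 24 hist1h4l genes share a symbol, as do several H2A genes. How alike their sequences are, and how reads were split between copies, was not examined, so the value of any 1 copy is uncertain.

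**Figure D1:**
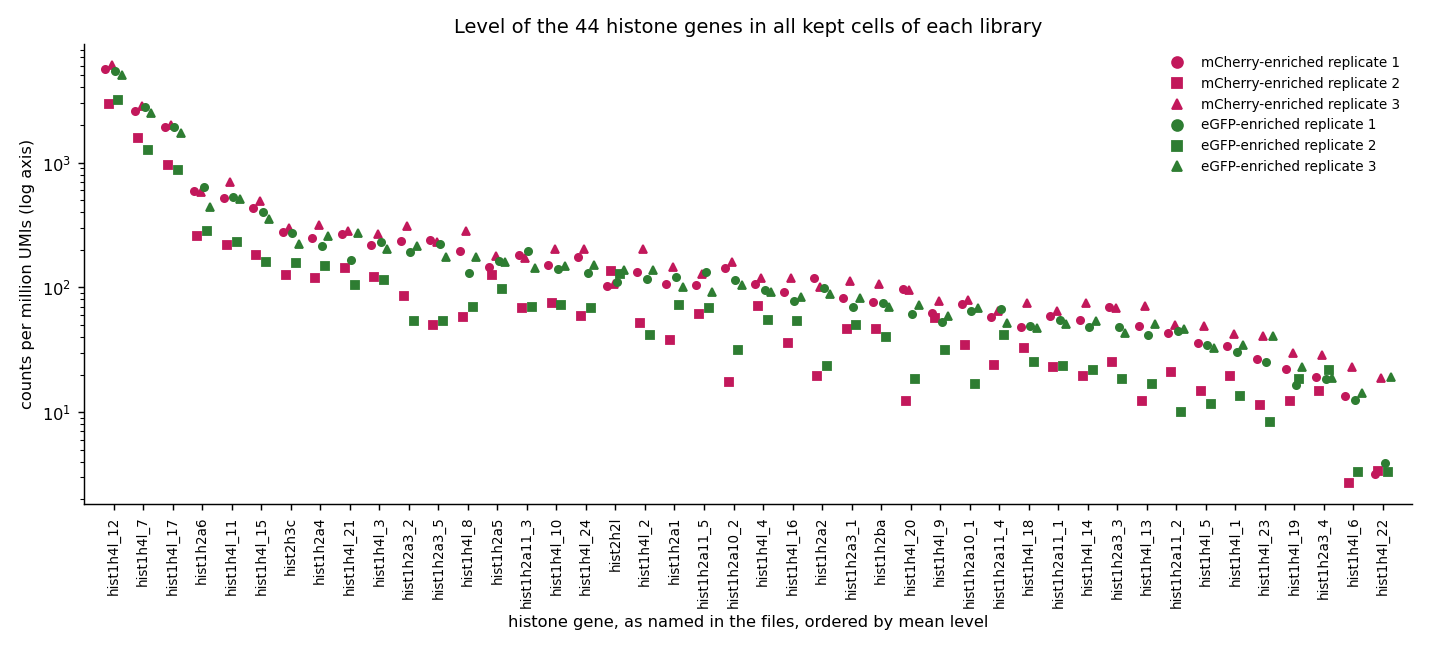
Level in CPM (log axis) of each of the 44 histone genes in all kept cells of the 6 libraries, ordered by mean level, with mCherry-enriched libraries left of eGFP-enriched libraries. hist1h4l_12, hist1h4l_7 and hist1h4l_17 stand above the rest, the replicate 2 libraries (squares) are low in most genes but not in hist2h2l, and hist1h4l_22, at the far right, is high in both replicate 3 libraries (triangles).

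The genes lie in 4 stretches of the annotation's gene order. The first holds 15 members within 60 rows of the gene list and 27.9% of the histone UMIs, and the last holds 26 members within 98 rows and 69.5%. A pair of H4 copies, hist1h4l_8 and hist1h4l_9, forms a stretch with 1.53%, and hist2h2l stands alone with 1.04%. Of the 44 identifiers, 40 had an entry in a current table of gene names and 10 kept the symbol used here, while hist1h2ba is now listed as h2bc1 and hist1h2a11_3 as h2ax2.

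The histone share differed between classes more than between libraries. It was highest in horizontal-like cells (3.92 ± 0.421%, SD, n = 3 libraries with at least 10 such cells), progenitor-like cells (3.24 ± 0.689%, n = 6) and photoreceptor-like cells (2.69 ± 0.550%, n = 4). Of horizontal-like, progenitor-like and photoreceptor-like cells, 55.2, 68.4 and 52.2% had at least 1 mki67 UMI among 1500 drawn per cell (means over libraries). Muller glia-like cells (1.25 ± 0.333%, n = 4) and stem cell-like cells (1.13 ± 0.338%, n = 6) were intermediate. Bipolar-like cells (0.757 ± 0.391%), amacrine-like cells (0.522 ± 0.40%) and cells like retinal ganglion cells (RGC-like, 0.510 ± 0.324%, n = 6 each) were lowest.

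Progenitor-like cells held 2.77, 2.83 and 4.25% in mCherry-enriched replicates 1, 2 and 3 and 3.44, 2.42 and 3.74% in eGFP-enriched replicates 1, 2 and 3. Stem cell-like cells held 1.52, 0.633 and 1.29% in the mCherry-enriched libraries and 1.18, 0.827 and 1.36% in the eGFP-enriched libraries. RGC-like cells held 0.851, 0.278 and 0.286% in the mCherry-enriched libraries and 0.987, 0.409 and 0.247% in the eGFP-enriched libraries. The progenitor-like values lay above all stem cell-like values, and the RGC-like values split, with both replicate 1 libraries high and the others inside the range of free RNA over libraries.

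Neighbours in this order were compared within libraries. Progenitor-like cells exceeded photoreceptor-like cells in 4 of 4 libraries, and photoreceptor-like cells exceeded Muller glia-like cells in 3 of 3. Stem cell-like cells exceeded bipolar-like cells in 5 of 6 libraries, and bipolar-like cells exceeded amacrine-like cells in 5 of 6. Horizontal-like exceeded progenitor-like cells in 2 of 3, Muller glia-like exceeded stem cell-like cells in 2 of 4, and amacrine-like exceeded RGC-like cells in 2 of 6, so in these 3 pairs the difference did not exceed the spread between libraries. Of the 787 cells over 20000 UMIs, 128 and 492 were in replicate 1 of the mCherry-enriched and eGFP-enriched libraries, and their part in the higher neuron-like shares of replicate 1 was not tested.

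**Figure D2:**
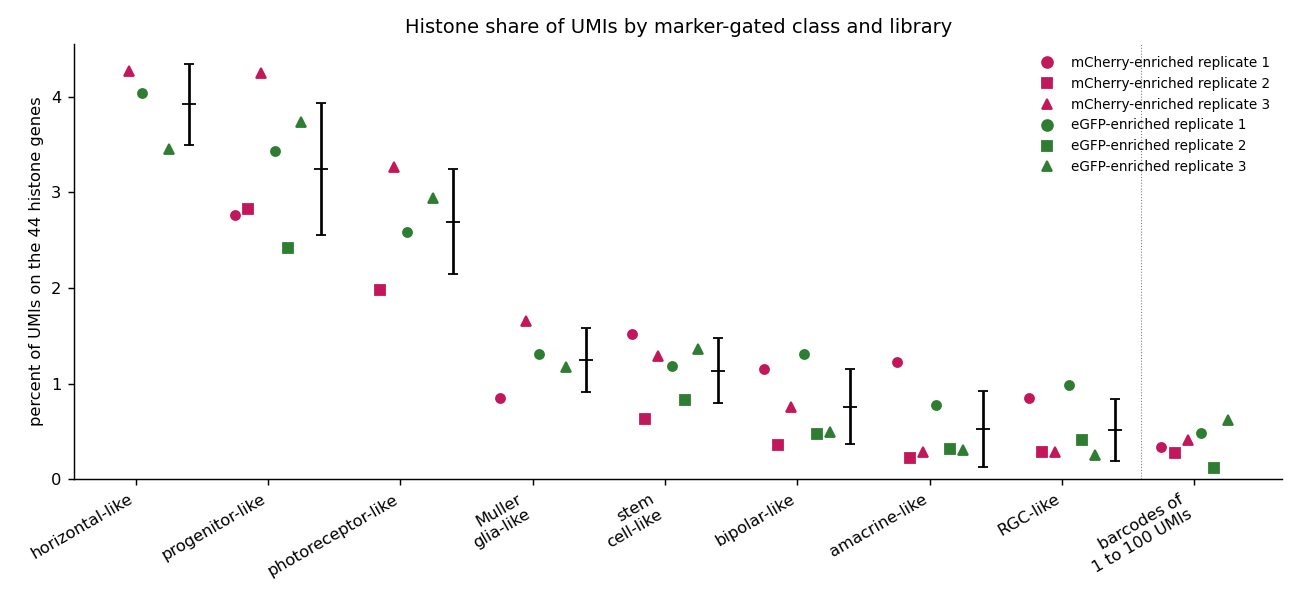
Percent of UMIs on the 44 histone genes in each marker-gated retinal class, 1 point per library with at least 10 cells of the class (mCherry-enriched left of eGFP-enriched), with the mean and SD as black bars, and at the right the same share in barcodes of 1 to 100 UMIs. Horizontal-like, progenitor-like and photoreceptor-like cells lie above all other classes. Outside the replicate 1 libraries, amacrine-like and RGC-like cells lie inside the range of the low barcodes over libraries. In eGFP-enriched replicate 2 they lie above the low barcodes of their own library (0.314 and 0.409%, against 0.120%). They lie below those of their own library in eGFP-enriched replicate 3 (0.309 and 0.247%, against 0.620%) and mCherry-enriched replicate 3 (0.281 and 0.286%, against 0.411%). In mCherry-enriched replicate 2 they lie at 0.222 and 0.278%, against 0.275%.

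Counted in 1500 UMIs drawn from each cell, the median progenitor-like cell held 44 histone UMIs (mean of the library medians, which ranged from 19 to 60) spread over a median of 14 of the 44 genes. The median stem cell-like cell held 9.5 histone UMIs (range 7 to 11) over 5.17 genes, and the median RGC-like cell held 4.67 (range 3 to 9) over 3.17 genes. On average over libraries, cells without any histone UMI were 0.276% of progenitor-like and 3.13% of RGC-like cells. The 10th and 90th percentiles were 6.88 and 86.3 UMIs in progenitor-like cells and 1.63 and 12.4 UMIs in RGC-like cells. In number of UMIs, progenitor-like cells thus covered a wider range than RGC-like cells. Wide ranges were also seen in Muller glia-like cells (10th and 90th percentiles of 2.1 and 51.4 UMIs) and photoreceptor-like cells (3.7 and 80.2 UMIs).

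Each class was then set against the other gated retinal cells of the same libraries, gene by gene, by the quasi-likelihood F-test of edgeR on UMIs summed per library, with p-values adjusted after Benjamini and Hochberg over every gene tested. All 44 members passed the filter on low counts in each of these comparisons, and a gene was called at an adjusted p below 0.05. The direction was nearly uniform across the family in every class, with hist2h2l as the exception described further on.

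In progenitor-like cells 43 of 44 members were higher and 1 was lower, where 43.4% of all genes tested were called, 18.1% higher and 25.3% lower. The median log2 fold change of the members was 2.09, against -0.07 for all genes. hist1h2a6 rose by 2.14 on the log2 scale (SE 0.13, Benjamini-Hochberg adjusted p = 2.18e-09 in edgeR) and was higher in 6 of 6 libraries. The low-abundance H4 copies hist1h4l_6 and hist1h4l_23 and the H2A gene hist1h2a10_1 had the largest changes, 2.42, 2.24 and 2.23.

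In horizontal-like cells 42 of 44 members were higher and 1 lower over 3 libraries (16.8% of all genes called, 6.12% higher and 10.7% lower), with a member median of 1.32 against -0.23 for all genes. hist1h4l_22, hist1h4l_2 and hist1h2a3_4 rose most (2.61, 1.90 and 1.76), and hist1h2a11_4 was the member without a call (0.57, adjusted p = 0.152 in edgeR). The smallest adjusted p of a member here was 2.65e-70 in edgeR, far below that in any other class. With only 3 libraries, such p-values may overstate how firm the calls are. In photoreceptor-like cells 42 of 44 were higher and 1 lower over 4 libraries (35.8% of all genes called, 16.8% higher and 19.0% lower), with a member median of 0.88 against -0.02. hist1h4l_22 and hist1h2a11_4 rose most (1.61 and 1.23), and hist1h2a2 was the member without a call (0.39, adjusted p = 0.0635 in edgeR). hist1h4l_22 is rare, with 5, 71, 171 and 393 UMIs in all kept cells of the 4 libraries used for photoreceptor-like cells. The sizes of its changes in both classes are uncertain.

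Members were lower in the remaining classes. In RGC-like cells 43 of 44 were lower and 1 higher (42.1% of all genes called, 22.5% lower and 19.5% higher), with a member median of -2.20, and the H2A genes hist1h2a5 and hist1h2a11_4 fell by 2.74 and 2.66 on the log2 scale. In amacrine-like cells 43 were lower and 1 higher (28.7% of all genes called, 19.3% lower and 9.38% higher), with a median of -1.92, and hist1h2a1, hist1h4l_17 and hist1h2a4 fell by 2.504, 2.47 and 2.41 on the log2 scale. In bipolar-like cells 43 were lower and none higher (33.7% of all genes called, 18.8% lower and 14.8% higher), with a median of -1.16, and hist1h2a11_2, hist1h4l_11 and hist1h4l_12 fell by 1.56, 1.40 and 1.40 on the log2 scale. These 3 classes share their comparison cells with each other and with the classes above, since each class forms part of the rest of the others.

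In Muller glia-like cells 29 of 44 members were lower over 4 libraries (21.3% of all genes called, 11.4% lower), with a median of -0.72 against -0.11 for all genes, and in stem cell-like cells 30 of 44 were lower (51.3% of all genes called, 24.6% lower), with a median of -0.60 against -0.04. No member was called higher in either class, where 9.92% and 26.7% of all genes were. hist1h4l_1 and hist1h4l_13 fell in Muller glia-like cells by 1.34 and 1.26 on the log2 scale. The count in stem cell-like cells fell to 15 without mCherry-enriched replicate 3, a fit for which the share of all genes called is not given here. When the gate was run on cells thinned to equal depth, 0 members were called lower in Muller glia-like cells (median -0.13) and 0 in amacrine-like cells (median -1.49, 43 members with unadjusted p below 0.05), and the cause was not tested. The share of all genes called with that gate is not given here, so a count of 0 does not by itself show that a difference was lost.

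**Figure D3:**
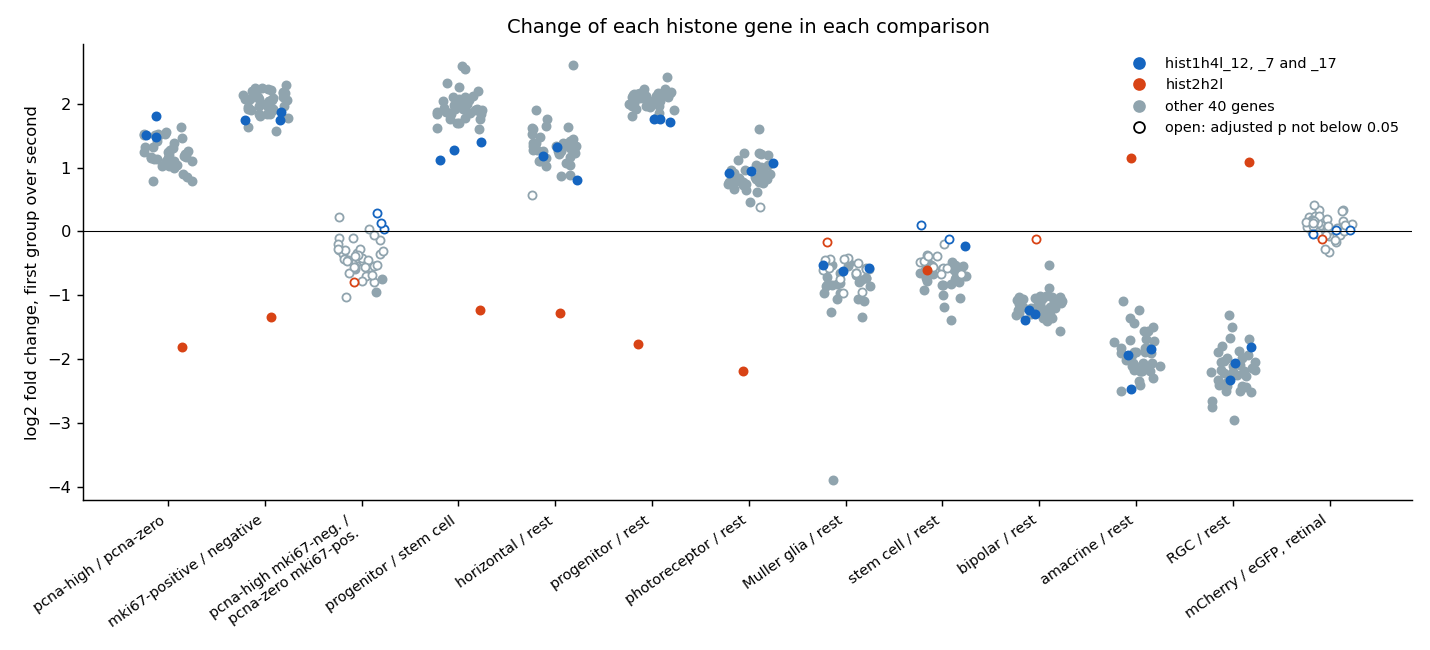
Log2 fold change of each of the 44 histone genes in 13 comparisons, first group over second, from edgeR's fits. Filled points passed an adjusted p of 0.05. Most genes lie on the same side in each comparison with many calls, hist2h2l (orange) lies on the other side in 8 of them, and the leading H4 copies (blue) lie below the other genes in the progenitor-like against stem cell-like comparison and above most of them in stem cell-like cells against the rest. The lowest point, hist1h4l_22 in Muller glia-like cells, comes from counts of 0 in most libraries and is no measured size.

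Progenitor-like and stem cell-like cells were also set against each other. In progenitor-like cells 43 of 44 members were higher and 1 lower, where 47.3% of all 6492 genes tested were called, 20.8% higher and 26.5% lower, with a member median of 1.91 against -0.02 for all genes. hist2h3c was counted at 536, 527 and 803 CPM in progenitor-like cells of mCherry-enriched replicates 1, 2 and 3 and at 752, 599 and 649 CPM in those of the eGFP-enriched replicates. In stem cell-like cells it was counted at 216, 119.9 and 134 CPM in the mCherry-enriched libraries and at 195, 120.5 and 180.2 CPM in the eGFP-enriched libraries. The groups did not overlap, and hist2h3c was higher by 1.99 (SE 0.17, adjusted p = 1.75e-08 in edgeR).

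The leading H4 copies showed smaller differences than the rest of the family here. hist1h4l_12, hist1h4l_7 and hist1h4l_17 were higher in progenitor-like than in stem cell-like cells by 1.41, 1.28 and 1.12 on the log2 scale, while the other 40 members apart from hist2h2l were higher by 1.60 to 2.58. hist1h4l_6, hist1h4l_22 and hist1h4l_1 were at the upper end (2.58, 2.55 and 2.32). The size for hist1h4l_22 is uncertain, since it had 5 and 2 UMIs in all kept cells of mCherry-enriched and eGFP-enriched replicate 2. The 3 leading copies held 59.8, 68.1 and 59.6% of the histone UMIs of progenitor-like cells in mCherry-enriched replicates 1, 2 and 3 and 62.3, 60.4 and 61.8% in the eGFP-enriched replicates. In stem cell-like cells they held 67.5, 74.6 and 66.4% in the mCherry-enriched libraries and 68.8, 79.4 and 69.8% in the eGFP-enriched libraries. The share was lower in progenitor-like cells of every library, and no test was run on it.

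Against the other gated retinal cells, hist1h4l_7 and hist1h4l_17 were not called in stem cell-like cells (-0.12 and 0.10), and hist1h4l_12 was lower by little (-0.23, adjusted p = 0.04997 in edgeR). hist1h4l_6, hist1h4l_9 and hist1h4l_1 fell there by 1.18, 1.04 and 0.99 on the log2 scale. Of the other 40 members, 39 lay below all 3 leading copies.

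pcna and mki67 ranked the classes differently, and the order of the histone share was closer to that of mki67. Stem cell-like cells had the highest pcna level, 807, 1558 and 1630.4 CPM in mCherry-enriched replicates 1, 2 and 3 and 1179, 2357 and 1253 CPM in the eGFP-enriched replicates. Progenitor-like cells had 1044, 878 and 995 CPM of pcna in the mCherry-enriched libraries and 1100.3, 614 and 1276 CPM in the eGFP-enriched libraries. The groups overlapped, and pcna did not pass the test between them (-0.47, SE 0.23, adjusted p = 0.0978 in edgeR, higher in progenitor-like cells in 2 of 6 libraries).

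For mki67, progenitor-like cells had 1239, 1638 and 1392 CPM in the mCherry-enriched libraries and 1105, 1378 and 1095 CPM in the eGFP-enriched libraries. Stem cell-like cells had 611, 332 and 594 CPM in the mCherry-enriched libraries and 430.5, 455 and 409.7 CPM in the eGFP-enriched libraries. These did not overlap, and mki67 was higher in progenitor-like cells by 1.42 (SE 0.14, adjusted p = 1.48e-07 in edgeR). Across the means of the 8 classes the histone share had a Pearson correlation of 0.966 with mki67 (Spearman 0.929) and of 0.520 with pcna (Spearman 0.714), given as a description of 8 points that share their libraries.

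**Figure D4:**
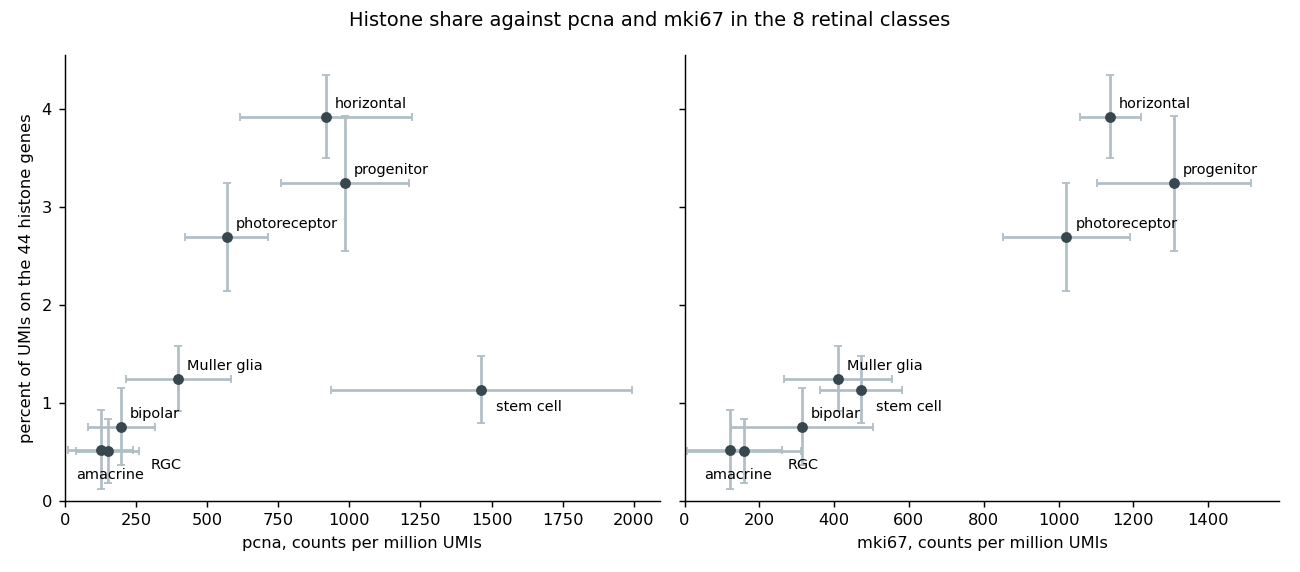
Mean histone share of UMIs (percent) against the mean level of pcna (left) and mki67 (right) in CPM for the 8 retinal classes, with the SD over libraries as bars. Stem cell-like cells lie to the far right in pcna, at a histone share of 1.13%, and among the other classes in mki67.

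All kept cells, whatever their class, were next grouped by their own pcna and mki67 UMIs among 1500 drawn per cell, so that groups were set at equal depth. pcna-high cells had at least 3 pcna UMIs and pcna-zero cells had none. pcna-high cells held a histone share of 2.27, 1.89 and 2.61% in mCherry-enriched replicates 1, 2 and 3 and 1.92, 1.48 and 2.66% in eGFP-enriched replicates 1, 2 and 3. pcna-zero cells held 1.23, 0.555 and 1.16% in the mCherry-enriched libraries and 1.35, 0.540 and 0.902% in the eGFP-enriched libraries. The groups did not overlap, with means of 2.14 ± 0.458% and 0.957 ± 0.350% (SD, n = 6).

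Of the members, 43 of 44 were higher in pcna-high cells and 1 was lower, where 41.4% of the 10808 genes tested were called, 19.8% higher and 21.6% lower, and the member median was 1.21. hist1h4l_17 was counted at 2968, 2747 and 3488 CPM in pcna-high cells of mCherry-enriched replicates 1, 2 and 3 and at 2645, 1841 and 3698 CPM in those of the eGFP-enriched replicates. In pcna-zero cells it was counted at 1413.5, 562 and 1122 CPM in the mCherry-enriched libraries and at 1618, 505 and 943 CPM in the eGFP-enriched libraries. The groups did not overlap, and its rise of 1.81 (SE 0.18, adjusted p = 5.00e-05 in edgeR) was the largest of the family. hist1h2a11_2 rose by 1.63 and hist1h4l_7 by 1.48.

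mki67-positive cells had at least 1 mki67 UMI among 1500, a state that free RNA can also give. Free RNA held between 61.0 and 234 CPM of mki67 and between 413 and 659 CPM of pcna. Of RGC-like and amacrine-like cells, neurons that should have left the cycle, 13.2% and 10.5% were mki67-positive (means over 6 libraries), while 1.101% and 2.25% were pcna-high. The mki67-positive part ranged over libraries from 2.22 to 24.9% in RGC-like and from 0 to 28.1% in amacrine-like cells. In eGFP-enriched replicates 1 and 3, free RNA held 223 and 234 CPM of mki67, and 24.9 and 2.22% of RGC-like cells were mki67-positive. What made these cells mki67-positive was not tested. All mki67-positive cells together held a histone share of 2.02, 2.46 and 3.58% in mCherry-enriched replicates 1, 2 and 3 and 1.97, 1.34 and 3.17% in eGFP-enriched replicates 1, 2 and 3. mki67-negative cells held 1.01, 0.285 and 0.825% in the mCherry-enriched libraries and 1.11, 0.546 and 0.743% in the eGFP-enriched libraries. The groups did not overlap, with means of 2.42 ± 0.827% and 0.752 ± 0.303% (SD, n = 6).

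Again 43 of 44 members were higher and 1 lower, where 20.2% of the 12625 genes tested were called, 10.2% higher and 10.0% lower, and the member median was 2.04. The largest changes were those of hist1h2a5 (2.296), hist1h2a3_2 (2.25) and hist2h3c (2.25, SE 0.33, adjusted p = 0.00336 in edgeR). hist1h4l_12 and hist1h4l_7 rose less (1.75 and 1.74), and of the 40 members beside the leading copies and hist2h2l, 33 rose by more than all 3 leading copies. In the pcna comparison the order was turned, since 32 of the 40 rose by less than all 3.

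The share climbed with the number of mki67 UMIs, from 0 to 3, as 0.6254, 1.73, 3.03 and 3.37% (means over 4 to 6 libraries with at least 10 cells), and was 3.17% at 4 or more. Replicates 1 and 3 of both sorts were the libraries with at least 10 cells in both of the last groups. In mCherry-enriched and then eGFP-enriched replicates 1 and 3, the share was 2.60, 4.31, 2.89 and 3.69% at 3 mki67 UMIs. At 4 or more it was 2.60, 4.14, 3.02 and 3.61% in the same order. With pcna UMIs from 0 to 4 it was 0.861, 1.58, 2.32, 2.25 and 2.59%, and 2.60% at 5 or more. From 2 UMIs of pcna on, the means lay close together, with SDs of 0.191 to 0.496 over 3 to 5 libraries. These means rest on different libraries. Only mCherry-enriched replicate 3 and eGFP-enriched replicates 1 and 3 had at least 10 cells at 4 and at 5 or more pcna UMIs. Within those 3 libraries, the share was 3.03, 2.16 and 2.57% at 2 pcna UMIs and 2.80, 2.56 and 2.42% at 5 or more. Within each library, the rank correlation across cells between histone and mki67 UMIs was 0.445 to 0.546, and that between histone and pcna UMIs was 0.311 to 0.472, as a description over cells that share 1 library.

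**Figure D5:**
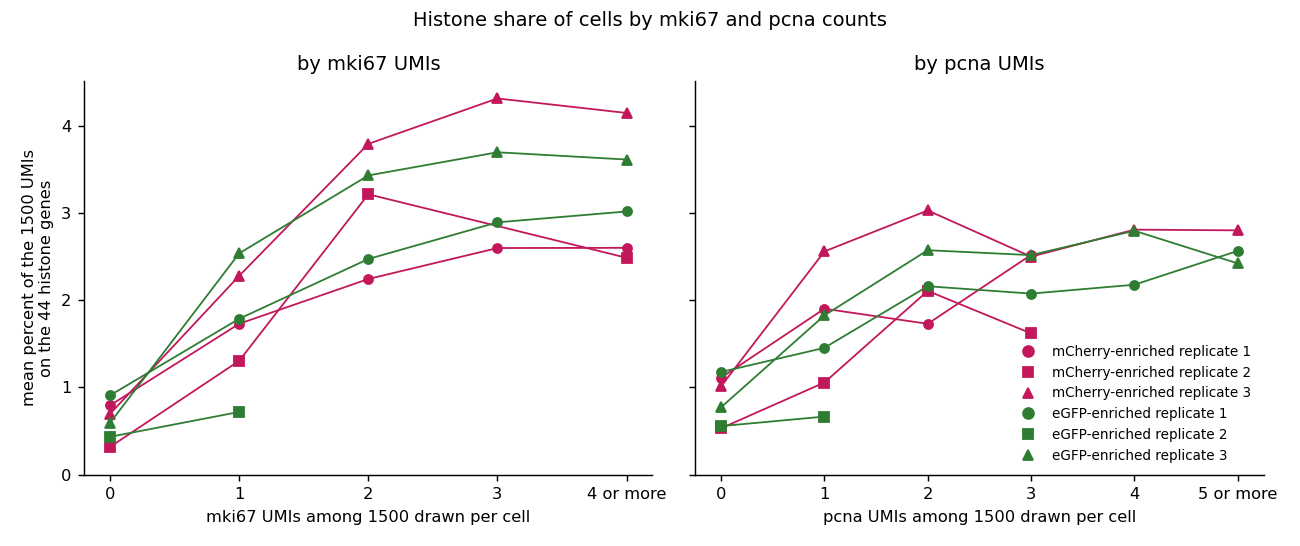
Mean percent of 1500 drawn UMIs on the 44 histone genes in cells with 0 to 4 or more mki67 UMIs (left) and 0 to 5 or more pcna UMIs (right), 1 line per library, groups under 10 cells not drawn. All libraries start below 1.18%, and with mki67 the replicate 3 libraries reach the highest shares.

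The classes made up different shares of the pcna-high and pcna-zero cells. Of pcna-high cells 29.3% were progenitor-like and 23.6% stem cell-like, while 25.9% of pcna-zero cells were bipolar-like. Ties made up 20.1% of pcna-high and 12.5% of pcna-zero cells, and mesenchyme-like cells 1.83% and 2.74%. These are parts of cells, whereas full UMI counts were summed, so deep cells weighed more. In all kept cells, ties held 4801353 of 8842567 UMIs in mCherry-enriched replicate 1 and 27170128 of 43521749 UMIs in eGFP-enriched replicate 1. The part of ties in the UMIs of each state is not given here. Depth moved with the state too, with library medians of 6158.5 to 16322 UMIs in pcna-high and 4919.5 to 10063 UMIs in pcna-zero cells, higher in pcna-high cells of every library, and its part in the result was not tested. With all cells thinned to 1500 UMIs, 36 of 42 members tested were higher with pcna and 42 of 43 with mki67. The shares of all genes called with thinned counts are not given here, so these counts stand without a background.

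Within a class, the relation to pcna was not uniform. Progenitor-like cells that were pcna-high held a histone share of 2.51 and 3.27% in mCherry-enriched replicates 1 and 3 and of 2.99 and 3.60% in eGFP-enriched replicates 1 and 3. pcna-zero progenitor-like cells of the same libraries held 3.38 and 4.65% in the mCherry-enriched libraries and 3.34 and 3.63% in the eGFP-enriched libraries. pcna-high cells were lower in each of these 4 libraries, in eGFP-enriched replicate 3 by little. They also held less mki67, 848, 1009, 718 and 566 CPM in the same order, against 1791, 1710, 1306 and 1408 CPM. Among mki67-negative progenitor-like cells of eGFP-enriched replicates 1 and 3, pcna-high cells were higher (2.64 and 3.27%, against 2.304 and 1.87%). Among mki67-positive cells they were lower in mCherry-enriched replicate 3 and eGFP-enriched replicates 1 and 3 (3.29, 3.22 and 3.91%, against 5.18, 3.75 and 4.27%).

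Stem cell-like cells, taken whatever their mki67 UMIs, had a higher share when pcna-high in eGFP-enriched replicates 1 and 3. In these, the only libraries with 10 cells in both states, pcna-high cells held 1.57 and 1.66%, against 0.800 and 1.00% in pcna-zero cells. Photoreceptor-like cells of mCherry-enriched replicate 3 and eGFP-enriched replicate 3 did too, with 4.22 and 3.84% in pcna-high cells, against 2.34 and 2.48% in pcna-zero cells. These shares carry no test, and the difference between classes was not tested.

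Both markers together set the cells apart further. pcna-high mki67-positive cells held 2.61 ± 0.557% (n = 5 libraries) and pcna-zero mki67-positive cells held 2.31 ± 0.770% (n = 6). pcna-high mki67-negative cells held 1.97 ± 0.525% (n = 5) and pcna-zero mki67-negative cells held 0.456 ± 0.216% (n = 6). The last value lies in the range of free RNA over libraries. Here pcna-zero and mki67-negative mean no UMI of the marker among those drawn, not absence of its message. In full counts, pcna-high mki67-negative cells held 259 to 521 CPM of mki67 over libraries. pcna-zero mki67-positive cells held 99.1 to 389 CPM of pcna. In the eGFP-enriched replicate 3 library, stem cell-like cells held 1.29% when pcna-high mki67-negative and 2.19% when pcna-zero mki67-positive. They held 2.23% when pcna-high mki67-positive and 0.559% when pcna-zero mki67-negative. The shares of mki67-positive progenitor-like cells of that library (4.27% when pcna-zero) were not reached in any of these states.

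pcna-high mki67-negative cells were set against pcna-zero mki67-positive cells over 5 libraries. No member was higher and 3 of 44 were lower, where 23.6% of all genes were called, 11.8% higher and 11.8% lower, with a member median of -0.43 against -0.09 for all genes. The 3 were hist1h2a3_4 (-0.96), hist1h4l_13 (-0.74) and hist2h3c (-0.59, SE 0.20, adjusted p = 0.0476 in edgeR), and 14 members had an unadjusted p below 0.05. The leading copies hist1h4l_12, hist1h4l_7 and hist1h4l_17 had changes of 0.13, 0.04 and 0.29, with none called, and 39 of the other 40 lay below all 3. In the fit of all 5 libraries, the 6.82% of members called lower lay below the 11.8% of all genes. The count was 0 without mCherry-enriched replicate 3 or without eGFP-enriched replicate 3, and 9 without mCherry-enriched replicate 1. It was 6 without eGFP-enriched replicate 1 and 19 without both replicate 1 libraries. The shares of all genes called in these refits are not given here, so their counts stand without a background.

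Genes that handle histones and their messages, called supply genes here, were followed as a list. Of 15 listed supply genes 14 are in the files and 13 were tested, and all 13 were higher in pcna-high than in pcna-zero cells (19.8% of all genes higher). With mki67 9 were higher and none lower (10.2% of all genes higher). chaf1b, a subunit of the chromatin assembly factor that deposits H3 and H4 behind the fork, rose by 3.53 (SE 0.39), asf1ba, an H3-H4 chaperone, by 3.47 (SE 0.33), slbp, which binds the stem-loop, by 2.98 (SE 0.30) and nasp, another H3-H4 chaperone, by 2.90 (SE 0.25), with adjusted p between 3.24e-05 and 7.79e-05 in edgeR.

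In pcna-high mki67-negative against pcna-zero mki67-positive cells 10 of the 13 supply genes were higher and none lower (11.8% of all genes each way), among them chaf1b (2.76), slbp (2.47), asf1ba (2.46) and nasp (1.99), while no histone gene was called higher. slbp was counted at 280.4, 454.5, 277, 208 and 391 CPM in the pcna-high mki67-negative cells of mCherry-enriched replicates 1 and 3 and eGFP-enriched replicates 1, 2 and 3, against 86.6, 49.4, 81.3, 92.0 and 41.4 CPM in the pcna-zero mki67-positive cells of those libraries. The groups did not overlap.

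Between progenitor-like and stem cell-like cells the supply genes had a median of 0.14, with 1 higher (daxx, 0.69) and 1 lower (eri1, -0.72), where 20.8% of all genes were higher and 26.5% lower. slbp (0.41), chaf1b (0.23), asf1ba (-0.16) and nasp (-0.06) were not called. Against the other gated retinal cells 10 of 13 were higher in stem cell-like cells (26.7% of all genes) and 11 of 13 in progenitor-like cells (18.1%), with none lower in either, and 4 were higher and none lower in horizontal-like cells (6.12% of all genes higher). In RGC-like cells 9 were lower (22.5%), in bipolar-like cells 7 (18.8%), in amacrine-like cells 7 (19.3%) and in Muller glia-like cells 6 (11.4%), with none higher in these classes. In photoreceptor-like cells 2 were higher and 1 lower (16.8% and 19.0%). No test of a difference between the supply genes and the histone genes was run.

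Among 13 tested genes for replacement and other histones, the linker histone genes histh1l and h1-10 were higher in bipolar-like cells by 1.37 and 1.17 and fell in stem cell-like cells by 2.01 and 1.58 on the log2 scale. They fell in pcna-high cells by 0.97 and 1.03 on the log2 scale, and with mki67 they rose by 0.47 and 0.48. Of all 13, 4 were higher and 6 lower with pcna (19.8% and 21.6% of all genes), and 7 higher and 1 lower with mki67 (10.2% and 10.0%). h2ax, the H2A variant phosphorylated at DNA breaks, rose with pcna (1.09) and mki67 (1.66), and h2ax1, a gene of similar name, fell with both (1.63 and 0.81 on the log2 scale).

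hist2h2l (ENSDARG00000068996) went against the family in every comparison in which the rest moved together except those in Muller glia-like, stem cell-like and bipolar-like cells. In all kept cells it was counted at 103, 135 and 107 CPM in mCherry-enriched replicates 1, 2 and 3, against 111, 128 and 137 CPM in the eGFP-enriched replicates, a narrow range. The replicate 2 libraries were not low. It lies away from the histone stretches in the gene order, and free RNA held between 130.2 and 180.05 CPM of it.

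In pcna-high cells hist2h2l stood at 41.5, 11.8 and 14.5 CPM in mCherry-enriched replicates 1, 2 and 3 and at 64.4, 39.2 and 36.7 CPM in the eGFP-enriched replicates. In pcna-zero cells it stood at 122, 166 and 142 CPM in the mCherry-enriched libraries and at 133, 177 and 176 CPM in the eGFP-enriched libraries. The groups did not overlap, and pcna-high cells lay below free RNA. The change was -1.81 (SE 0.28, adjusted p = 6.29e-04 in edgeR), lower in 6 of 6 libraries. With mki67 it fell by 1.35 on the log2 scale (SE 0.25, adjusted p = 0.00671 in edgeR).

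By class, hist2h2l stood at 174, 227 and 212 CPM in amacrine-like cells of mCherry-enriched replicates 1, 2 and 3 and at 197, 245.5 and 256 CPM in those of the eGFP-enriched replicates. In progenitor-like cells it stood at 41.5, 19.5 and 20.5 CPM in the mCherry-enriched libraries and at 49.6, 59.9 and 23.2 CPM in the eGFP-enriched libraries. Against the other gated retinal cells it was higher in amacrine-like cells (1.15, SE 0.15, adjusted p = 1.36e-04 in edgeR, 6 of 6 libraries) and in RGC-like cells (1.08, SE 0.22, adjusted p = 0.00261 in edgeR, 5 of 6 libraries). It fell in progenitor-like cells by 1.77 on the log2 scale (SE 0.19, adjusted p = 3.45e-07 in edgeR), in photoreceptor-like cells by 2.19 and in horizontal-like cells by 1.27, a call that was lost without eGFP-enriched replicate 3.

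In photoreceptor-like cells hist2h2l had 0 counts in mCherry-enriched replicate 2, and 3.1, 59.3 and 24.8 CPM in mCherry-enriched replicate 3 and eGFP-enriched replicates 1 and 3. It was lower in progenitor-like than in stem cell-like cells (-1.24, SE 0.22, adjusted p = 1.28e-04 in edgeR, lower in 5 of 6 libraries), and was not called in bipolar-like (-0.11) or Muller glia-like cells (-0.16). In stem cell-like cells it was lower with the rest of the family (-0.60, SE 0.22, adjusted p = 0.0367 in edgeR).

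Between the sorts, no histone gene was called. In gated retinal cells 0 of 44 members were called between mCherry-enriched and eGFP-enriched libraries by edgeR, where 0.00% of 10447 genes were, and 0 members had an unadjusted p below 0.05 (294 of all genes did). DESeq2 called 0 members, and 1 gene higher and 13 lower over all genes. The member median was 0.09, and the fold changes ran from -0.33 to 0.41. hist1h4l_12 was counted at 5352, 3630.0 and 6686 CPM in mCherry-enriched replicates 1, 2 and 3, against 5543, 4235 and 5544 CPM in the eGFP-enriched replicates, a difference of 0.01 (SE 0.20).

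A fit with a replicate block took same-numbered libraries as pairs, an assumption that rests on weak correlations and that the labels do not state. With this block edgeR called 0 members, 2 members had an unadjusted p below 0.05, and 1 gene was higher and 35 lower over all genes. hist1h4l_12 then differed by -0.02 (SE 0.12). Among pcna-high retinal cells, 0 of 42 members tested were called by edgeR (0.00% of 3879 genes, 0 members and 63 genes with an unadjusted p below 0.05), with or without the block, and DESeq2 called 0 members. hist2h2l had the largest difference there (-0.63, SE 0.44). Without both replicate 1 libraries edgeR called 0 members in either comparison, where 3 genes were higher and 43 lower in all gated retinal cells. With 3 libraries a group these tests do not show that the sorts are alike.

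A single H4 copy was high in both replicate 3 libraries. hist1h4l_22 had 18.9 CPM in mCherry-enriched replicate 3 and 19.2 CPM in eGFP-enriched replicate 3, against 3.17, 3.38, 3.93 and 3.34 CPM in mCherry-enriched replicates 1 and 2 and eGFP-enriched replicates 1 and 2. These rest on 71 and 393 UMIs, against 28, 5, 171 and 2. The lower of both replicate 3 values was 4.80 times the highest of the others, where the next member, hist1h4l_23, had a ratio of 1.52. The gene was singled out after its values were seen, and the split of reads between hist1h4l copies was not examined.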

How the data were processed

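The authors made raw UMI counts per gene and barcode and deposited them unfiltered. Their notes name Cell Ranger 6.1.2 on GRCz11 with eGFP and mCherry added, while the matrix header names version 4. Members, gene lists and tests were chosen with earlier results of these data known. Counts were read as deposited.

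Kept barcodes were gated on full counts by 127 of 128 listed markers. Cells were thinned to 1500 UMIs for the pcna and mki67 groups (seed 7), and full counts were summed per library and group of at least 10 cells. edgeR 4.0.16 (TMM, filterByExpr, quasi-likelihood test, library as covariate for comparisons within libraries, Benjamini-Hochberg over all genes tested, adjusted p below 0.05) was run in R 4.3.3 and tested on simulated data. DESeq2 1.42.0 and the settings in the closing section were alternatives. Shares and correlations carry no test. CPM are UMI counts scaled to a common total per group, not divided by gene length. Tables were made with Python 3.11.15.

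Named genes were the 8 members with the highest mean CPM, in each comparison up to 3 called members with the largest change and 1 sign in every library, all members of a histone with 3 or fewer genes, pcna and mki67. hist1h4l_22 in Muller glia-like and RGC-like cells, which falls under this rule, is left without a value because most of its libraries there had few or 0 counts.

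Same-numbered libraries of the 2 sorts were checked for pairing over 10447 genes. Their deviations from the sort means correlated at 0.132, 0.101 and 0.111 for numbers 1, 2 and 3, each over 0.1. Libraries of different numbers correlated between -0.117 and 0.0578. These correlations are weak and the labels state no pairing. The study describes rounds that each gave a sample of both sorts, without naming the replicate numbers. The numbers were taken to pair the libraries, and the fit with the replicate block is given beside the sort comparison. No genome sequence was used.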

Additional observations from a re-analysis of the deposited data

How the results depend on the processing

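Most counts of members called kept their direction and stayed within 1.5 times the main count under the other settings tried, and the exceptions follow. For pcna-high mki67-negative against pcna-zero mki67-positive cells, the 3 members lower became 9 with RLE size factors, 6 with DESeq2, 9 with no filter on low counts, 11 with at least 500 genes and 800 UMIs per cell, 14 with at least 2 pcna UMIs, 10 with counts thinned to 1500 UMIs, 18 with at most 20000 UMIs per cell and 19 without both replicate 1 libraries, and ranged from 0 to 9 when a library was left out. In stem cell-like cells the 30 lower became 19 with the marker gate on thinned counts and ranged from 15 to 34 when a library was left out. In Muller glia-like cells the 29 lower became 17 with DESeq2, 0 with the gate on thinned counts and 18 with at most 20000 UMIs, and hist1h4l_17, hist1h4l_15 and hist2h3c changed sign with the gate on thinned counts (0.00273, 0.0268 and 0.00553). With that gate the 43 lower became 27 in bipolar-like and 0 in amacrine-like cells. In horizontal-like cells the 1 lower member ranged from 0 to 1 when a library was left out, and the share was 3.39% with thinned counts. The cause was not tested in any of these. The share of all genes called is not given for most of these settings, so their counts stand without a background. Between pcna-high mki67-negative and pcna-zero mki67-positive cells, RLE size factors put 1220 genes lower and DESeq2 1105, against 1021 in the main fit. The gate on thinned counts, at most 20000 UMIs and leaving out both replicate 1 libraries were chosen after seeing the data. RLE size factors moved the median of all genes from -0.09 to -0.31 with pcna (1531 genes higher and 3272 lower, against 2139 and 2334 with TMM), from -0.04 to -0.22 in stem cell-like cells (2059 and 2926, against 2473 and 2284) and from -0.07 to -0.19 in progenitor-like cells, and set it at -0.11 in amacrine-like cells. With mki67 the split was 1027 and 1773, against 1286 and 1267. The member median stood 1.30 and 1.31 above that of all genes with pcna under TMM and RLE. DESeq2 gave 973 genes higher and 590 lower in Muller glia-like cells, against 1037 and 1194, and 417 and 334 in horizontal-like cells, against 563 and 987. The replicate block changed no call of a member (0 called with and without it). Of the values of single named genes under other settings, 2319 kept their side of the threshold and, where called, their direction, 25 gained a call, 75 lost it and 3 reversed. Groups of as few as 10 cells, 3 libraries a sort and free RNA in the droplets limit these values.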

Other observations

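Cells gated outside the retina were not part of the comparisons between retinal classes or between the sorts. The pcna and mki67 groups were drawn from all kept cells and included them. Mesenchyme-like cells held a histone share of 0.860 and 1.58% in eGFP-enriched replicates 1 and 3 (22 and 108 cells) and melanin pigment-like cells 0.185, 0.596 and 0.428% in mCherry-enriched replicate 3 and eGFP-enriched replicates 1 and 3. hist2h2l was highest of all groups with 3 libraries in melanin pigment-like cells, with 416 ± 54.8 CPM (SD, n = 3). It made up 13.5% of their histone UMIs, against 1.04% in all kept cells (means over libraries). Its level was 446, 353 and 449 CPM in these libraries, in the order above. Its part of the histone UMIs thus differed widely between them, since the shares above differed. In free RNA it made up between 2.58 and 15.0% of the histone UMIs. Cells whose markers tied between classes held 1.105 ± 0.599% (SD, n = 6), and those below the minimum of markers 0.704 ± 0.169% (SD, n = 3). Of 30 groups of libraries checked for a library far from the others, and 147 fold changes checked for opposite signs in the sorts, 0 stood out.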
